A study of Arabidopsis thaliana with 18 samples.

Results

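The leaf senescence markers are 10 genes, taken by their gene identifiers from the 37336 genes counted in RNA-seq libraries of Arabidopsis thaliana rosettes. They are SAG12 (AT5G45890), SAG13 (AT2G29350), SEN1 (AT4G35770), NHL10 (AT2G35980, also called YLS9), SAG14 (AT5G20230), SAG21 (AT4G02380), SAG29 (AT5G13170), YLS3 (AT2G44290), YLS5 (AT2G38860) and AT3G10980. All 10 had a count in every library's table, and 9 of them passed the filter on low counts in the first sequencing stage and 10 in the later one. AT3G10980 was chosen under the name SAG20, but the RefSeq annotation gives that name to its neighbour AT3G10985. It is therefore called by its identifier here, and AT3G10985 is described beside it.

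The first stage held 4 groups of 3 libraries: Ler plants with the NahG transgene, the F1 hybrid C24 x Ler, and the wild-type accessions C24 and Ler. The later stage held 3 groups of 2 libraries: NahG lines 2 and 3 in the C24 background, and a second set of wild-type C24 called C24B. NahG encodes a bacterial salicylate hydroxylase, an enzyme that destroys salicylic acid, and the promoter that drives it is not given in the sources used here. All plants were grown under the same stated conditions, a day of 16 h light with 8 h dark and 21 °C, were put into soil on day 14 and were sampled as whole rosettes at 21 days after sowing. A library came from 6 to 10 pooled plants, so the p-values measure the spread between pools. Contrasts were made within a stage. In bulk RNA, fewer cells of a type and less RNA per cell cannot be told apart.

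Senescence is the programmed dismantling of an old leaf, in which chlorophyll, proteins and nucleic acids are broken down and their nitrogen is moved to growing parts. Genes that switch on in this process are used as markers of it, and many of them also respond to salicylic acid, to pathogens, to darkness or to oxidative stress. SAG12, a cysteine protease gene, is the marker most closely tied to leaf age. SAG13, SEN1 and NHL10 are also known to respond to salicylic acid or to pathogens, and with SAG12 they form the 4 salicylate-linked markers. The other 6 are SAG14, SAG21, SAG29, YLS3, YLS5 and AT3G10980. This grouping was made from general knowledge, and a place among the 6 does not mean that a gene lacks a response to salicylic acid.

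Reads counted to genes numbered 22446656 to 25706088 per library in the 12 first-stage libraries and 28132721 to 32465711 in the 6 later ones. Levels are given as CPM, reads of a gene per 1000000 counted reads, scaled by edgeR's TMM factors within a stage. In a first-stage library 3 reads made 0.108 to 0.153 CPM, and in a later one 0.0922 to 0.117 CPM. PR1, a gene induced by salicylic acid, served as a check of the labels. It was at 0.522 and 0.419 CPM in line 2 and 0.308 and 0.369 CPM in line 3, against 1091 and 738 CPM in C24B. It was at 0.989, 1.10 and 1.77 CPM in Ler NahG, against 28.4, 6.44 and 3.26 CPM in Ler. The groups did not overlap, but PR1 stayed short of the threshold in edgeR's test (adjusted p = 0.09). It was called lower in 2 of the 17 alternatives, with DESeq2 (adjusted p = 0.00044) and with edgeR without Ler replicate 3 (adjusted p = 0.016). Markers of mature leaf were high in every library, with a summed level of 27470 CPM or more, and the summed level of 4 root markers was at most 2.09 CPM. Summed markers of shoot apex and flower were at 0.856 CPM in C24B replicate 1 and at 22.7 CPM in C24B replicate 2. Nearly all of that gap was the 1 gene STM, at 0.467 and 21.9 CPM. The sums were at 1.58 to 2.59 CPM in C24 x Ler and at 24.5 to 72.0 CPM in every library of the other 5 groups.

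The stretch just before each gene was read for the cores of 3 motifs of defence and stress genes. The W-box core (TTGAC, or GTCAA on the other strand) is bound by WRKY factors, TGACG is bound by TGA factors, and CACGTG is the G-box. The window was the 250 bases before the annotated start, in the TAIR10.1 assembly with RefSeq annotation. A W-box core stood in 4 of the 10 windows, those of SAG13, NHL10, SAG21 and SAG29, against 44.9% of 27443 promoters of the same length. SAG21 had 3 of them, as 3.38% of promoters have 3 or more. The first base of the core lay 83 bases before the start in SAG13, 12 in NHL10, 13 in SAG29, and 145, 64 and 25 in SAG21. None of the 10 windows held TGACG, found in 18.6% of promoters, or CACGTG, found in 6.49%. The windows of 4 genes are printed 5′ to 3′ on the gene's strand, with the W-box cores in capitals. They belong to a pair of markers with 1 core (SAG13, NHL10), the marker with 3 (SAG21) and a marker with none (YLS3). The positions are chr2:12600664-12600913 on the plus strand for SAG13, chr2:15110242-15110491 on the plus strand for NHL10, chr4:1047106-1047355 on the minus strand for SAG21 and chr2:18306396-18306645 on the minus strand for YLS3.
SAG13: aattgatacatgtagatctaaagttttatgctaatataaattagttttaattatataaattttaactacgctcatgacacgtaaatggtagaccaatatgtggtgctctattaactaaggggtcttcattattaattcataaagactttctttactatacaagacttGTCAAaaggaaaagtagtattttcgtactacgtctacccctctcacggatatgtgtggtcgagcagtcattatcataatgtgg
NHL10: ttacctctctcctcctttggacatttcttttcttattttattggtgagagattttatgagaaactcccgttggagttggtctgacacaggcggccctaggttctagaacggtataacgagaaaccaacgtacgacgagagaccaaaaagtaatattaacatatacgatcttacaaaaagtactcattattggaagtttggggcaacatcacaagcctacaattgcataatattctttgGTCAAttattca
SAG21: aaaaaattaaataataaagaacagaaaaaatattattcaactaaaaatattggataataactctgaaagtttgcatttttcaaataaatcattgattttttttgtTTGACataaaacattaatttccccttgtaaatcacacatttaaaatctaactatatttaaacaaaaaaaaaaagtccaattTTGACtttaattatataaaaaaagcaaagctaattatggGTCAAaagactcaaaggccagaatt
YLS3: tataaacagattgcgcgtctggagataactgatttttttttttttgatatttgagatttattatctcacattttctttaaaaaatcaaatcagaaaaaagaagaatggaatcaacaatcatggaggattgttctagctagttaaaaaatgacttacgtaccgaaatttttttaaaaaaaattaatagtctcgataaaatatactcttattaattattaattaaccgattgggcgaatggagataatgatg
A match is a description of letters only. SAG13 and NHL10, with 1 core each, and YLS3 and SAG14, with none, were called lower in both C24 NahG lines. SAG21, with 3 cores, and SAG29, with 1, passed in line 3 only. SEN1, YLS5 and AT3G10980, with none, passed in neither line. SAG12, also with none, is given below as a description. Whether the cores bear on these levels was not tested.

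**Figure D1:**
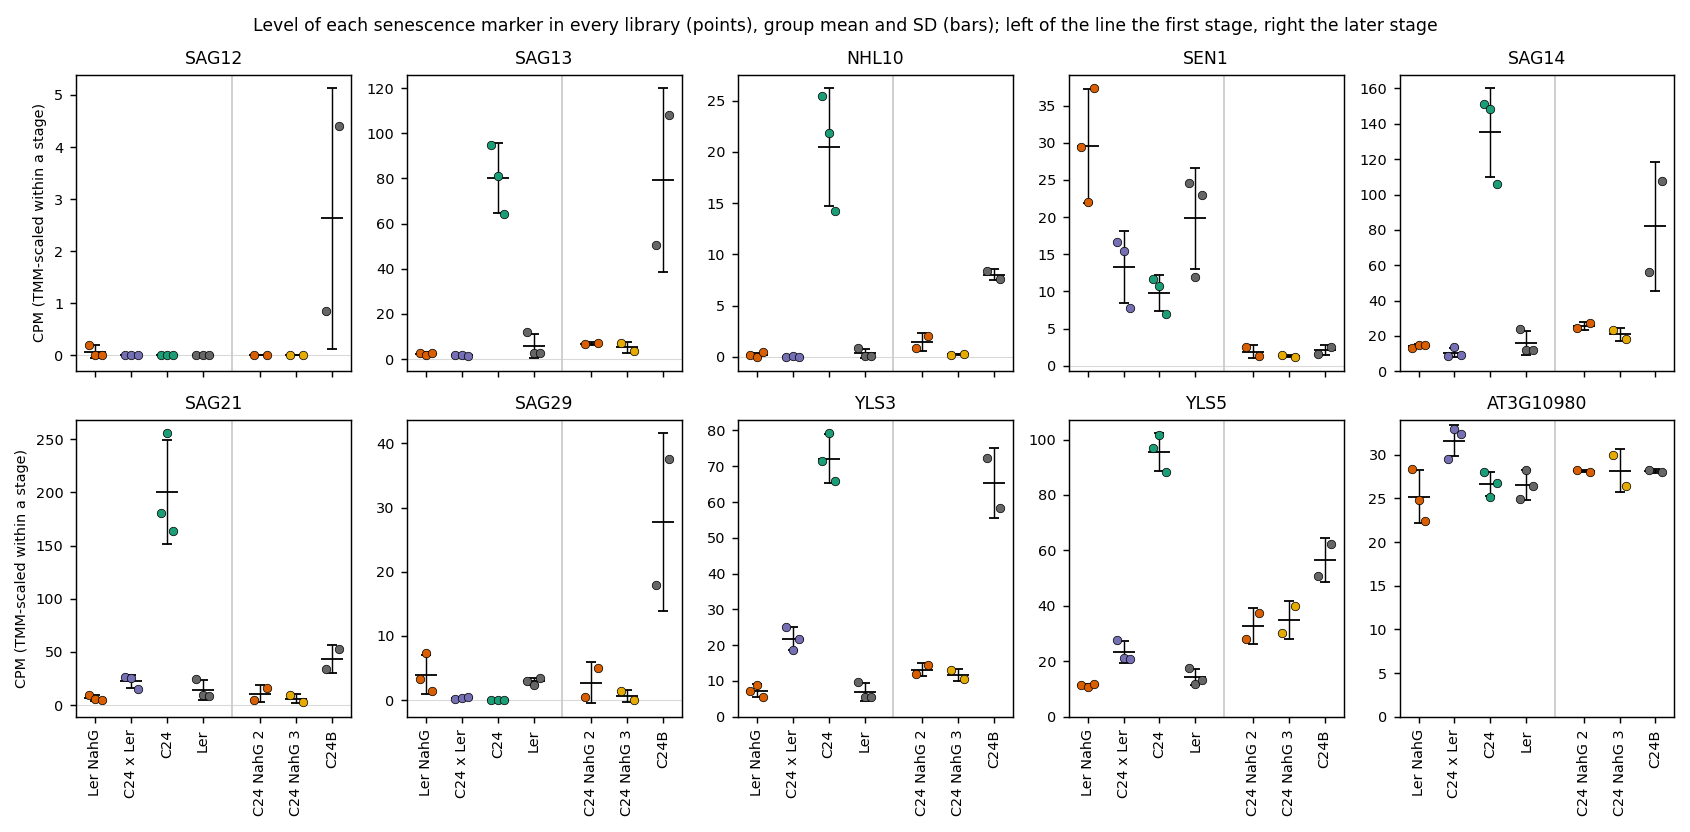
Level of each of the 10 markers in CPM (vertical axis, linear) in every library (points), with group mean and SD (bars), by group along the horizontal axis. First-stage groups stand left of the grey line and later-stage groups right of it. SAG12 had reads in C24B and in 1 Ler NahG library and was at 0 in the other 15, while AT3G10980 stayed between 22.4 and 32.9 CPM in all 18.

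Both C24 NahG lines were set against C24B, the wild type of their own stage. In line 2, 5 of the 10 markers passed an adjusted p under 0.05 in edgeR's quasi-likelihood test, all lower, where 7.1% of all genes tested were called lower. In line 3, 7 of the 10 were lower, where 8.16% of all genes were. SAG12, SAG13, NHL10, SAG14 and YLS3 were lower in both lines, and SAG21 and SAG29 passed in line 3. SAG12 passed the filter on low counts only through its C24B reads, so its call is given as a description, and without it 4 of the other 9 markers were lower in line 2 and 6 in line 3. No marker was higher in either line. The lines share the C24B libraries, so their results are not independent of each other.

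SAG13 encodes a short-chain dehydrogenase and lies at chr2:12600914-12602556 (TAIR10.1, plus strand), in 4 exons. SAG13 was at 6.51 and 7.22 CPM in line 2, and 6.99 and 3.38 CPM in line 3, against 50.5 and 108 CPM in C24B. All 4 line libraries lay below both C24B libraries. SAG13 fell in both lines, with log2 fold changes of -3.53 (SE 0.425) in line 2 and -3.94 (SE 0.437) in line 3 and adjusted p of 0.0023 and 0.0014. These calls held in all 11 alternatives tried for each line.

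NHL10, a gene of the NDR1/HIN1-like family of defence proteins with 1 exon at chr2:15110492-15111539 (plus strand), was at 0.830 and 2.06 CPM in line 2, and 0.171 and 0.277 CPM in line 3, against 8.37 and 7.62 CPM in C24B. The 3 groups did not overlap. NHL10 fell in both lines, with log2 fold changes of -2.47 (SE 0.418) in line 2 and -5.12 (SE 0.518) in line 3 and adjusted p of 0.011 and 0.0009. The line 2 call ended without line 2 replicate 1 (adjusted p = 0.055), while the line 3 call held in all 11 alternatives. In line 3 set against line 2, NHL10 differed by -2.65 (SE 0.536, adjusted p = 1.0) in edgeR's test, and DESeq2 called it at -2.67 with an adjusted p of 0.028.

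SAG12 lies at chr5:18613239-18614963 on the plus strand. It had 0 reads in all 4 line libraries, against 22 and 138 reads (0.856 and 4.40 CPM) in C24B. With the 0 set to 3 reads over the group, SAG12 was at least 59.4-fold lower in line 2 and at least 57.7-fold lower in line 3. It entered edgeR's test through C24B alone and passed (adjusted p = 0.03 for line 2 and 0.027 for line 3), and it did not pass with DESeq2 (adjusted p = 0.27 and 0.22). Most of its C24B reads came from replicate 2. Its calls also ended without either library of the line itself (adjusted p of 0.13 and 0.14 for line 2, 0.12 and 0.16 for line 3), as did the line 2 call without either line 3 library (adjusted p = 0.056 and 0.053) and with line 2 and C24B fitted alone (adjusted p = 0.055).

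SEN1, a gene induced by darkness and by sugar starvation that lies at chr4:16944878-16946266 on the plus strand, is the salicylate-linked marker that did not pass. It was at 2.52 and 1.32 CPM in line 2, and 1.44 and 1.20 CPM in line 3, against 1.60 and 2.58 CPM in C24B. Line 2 overlapped C24B, and line 3 lay just below it. SEN1 differed by -0.13 (SE 0.426) in line 2 and -0.67 (SE 0.436) in line 3, with adjusted p of 0.89 and 0.35.

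YLS3 encodes a protein related to lipid transfer proteins and lies at chr2:18305080-18306395 on the minus strand. YLS3 was at 11.9 and 14.4 CPM in line 2, and 12.9 and 10.5 CPM in line 3, against 72.3 and 58.3 CPM in C24B. The lines lay close together and far below C24B. YLS3 fell in both lines, with log2 fold changes of -2.31 (SE 0.174) in line 2 and -2.48 (SE 0.176) in line 3 and adjusted p of 0.00025 and 0.00016, and these calls held in all 11 alternatives for each line.

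SAG14, a blue copper-binding protein gene at chr5:6826365-6827748 on the plus strand, was at 24.3 and 27.4 CPM in line 2, and 23.3 and 18.4 CPM in line 3, against 56.3 and 108 CPM in C24B. No line library reached C24B. SAG14 fell in both lines, with log2 fold changes of -1.67 (SE 0.285) in line 2 and -1.98 (SE 0.289) in line 3 and adjusted p of 0.012 and 0.005. Each call ended without either library of the line itself, with adjusted p of 0.11 and 0.088 in line 2 and 0.052 and 0.091 in line 3.

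SAG21 encodes a late-embryogenesis-abundant protein linked to oxidative stress. It lies at chr4:1046042-1047105 on the minus strand and overlaps AT4G04125 on the same strand, which was not analysed here. SAG21 was at 5.10 and 16.5 CPM in line 2, and 9.11 and 3.08 CPM in line 3, against 34.1 and 52.4 CPM in C24B. Both lines lay below C24B, but their replicates differed about 3-fold. SAG21 differed by -2.01 (SE 0.596, adjusted p = 0.092) in line 2 and fell by 2.84 (SE 0.624, adjusted p = 0.029) in line 3, and lost that call when either line 3 library was left out (adjusted p = 0.066 and 0.21). Line 2 passed without a filter on low counts (adjusted p = 0.0021) and without C24B replicate 1 or 2 (adjusted p = 0.015 and 0.044).

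SAG29 encodes SWEET15, a sugar transporter of senescing leaves and seeds, and lies at chr5:4181042-4183354 on the minus strand. SAG29 was at 0.461 and 4.96 CPM in line 2, and 1.37 and 0 CPM in line 3, against 17.98 and 37.5 CPM in C24B. All line libraries lay below C24B, and the replicates of each line stood far apart. SAG29 differed by -3.36 (SE 1.03, adjusted p = 0.10) in line 2 and fell by 5.39 (SE 1.21, adjusted p = 0.031) in line 3. The line 3 call ended with DESeq2 (adjusted p = 0.11) and without either line 3 library (adjusted p = 0.074 and 0.19). SAG29 passed in line 2 with no filter (adjusted p = 0.0021) and on leaving out C24B replicate 1 or 2 (adjusted p = 0.0084 and 0.045).

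YLS5, a gene of the DJ-1/PfpI family at chr2:16232859-16235367 on the minus strand, was at 28.2 and 37.3 CPM in line 2, and 30.0 and 39.8 CPM in line 3, against 50.8 and 62.2 CPM in C24B. The lines lay below C24B without overlap. YLS5 differed by -0.79 (SE 0.195) in line 2 and -0.69 (SE 0.195) in line 3, just short of the threshold with adjusted p of 0.051 and 0.066. DESeq2 called it lower in both lines (adjusted p = 0.0061 and 0.019), as did edgeR with no filter (adjusted p = 0.0045 and 0.0098), with a replicate block (adjusted p = 0.0043 and 0.0064) and without C24B replicate 1 (adjusted p = 0.011 and 0.019).

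AT3G10980, a PLAC8 family gene at chr3:3438212-3441299 on the plus strand, was at 28.2 and 28.1 CPM in line 2, and 30.0 and 26.5 CPM in line 3, against 28.3 and 28.0 CPM in C24B. Its log2 fold change was 0.00 (SE 0.115) in each line, the smallest of the 10 markers. The neighbour that carries the name SAG20, AT3G10985, known as a wound-induced gene and placed at chr3:3442237-3443680 on the same strand, was at 23.8 and 32.4 CPM in line 2, and 24.9 CPM in both line 3 libraries, against 42.0 and 37.8 CPM in C24B. AT3G10985 fell by 0.68 (SE 0.159, adjusted p = 0.037) in line 3 and differed by -0.50 (SE 0.159, adjusted p = 0.11) in line 2. The line 3 call held in 8 of the 11 alternatives.

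Split by the grouping given above, SAG13 and NHL10 were lower in each line among the 3 salicylate-linked markers other than SAG12, and SEN1 did not pass. Of the other 6 markers, 2 were lower in line 2 and 4 in line 3, with medians of -1.84 and -2.23. Over all genes tested the medians were 0.00 and -0.01. YLS3 and SAG14, which are not in the salicylate-linked group, passed in both lines. Between the lines, 0 of the 10 markers passed edgeR's test in line 3 against line 2, where 0.0% of all genes were called. NHL10 was the 1 marker with an unadjusted p under 0.05, as 590 genes had, and the 1 marker called by DESeq2.

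**Figure D2:**
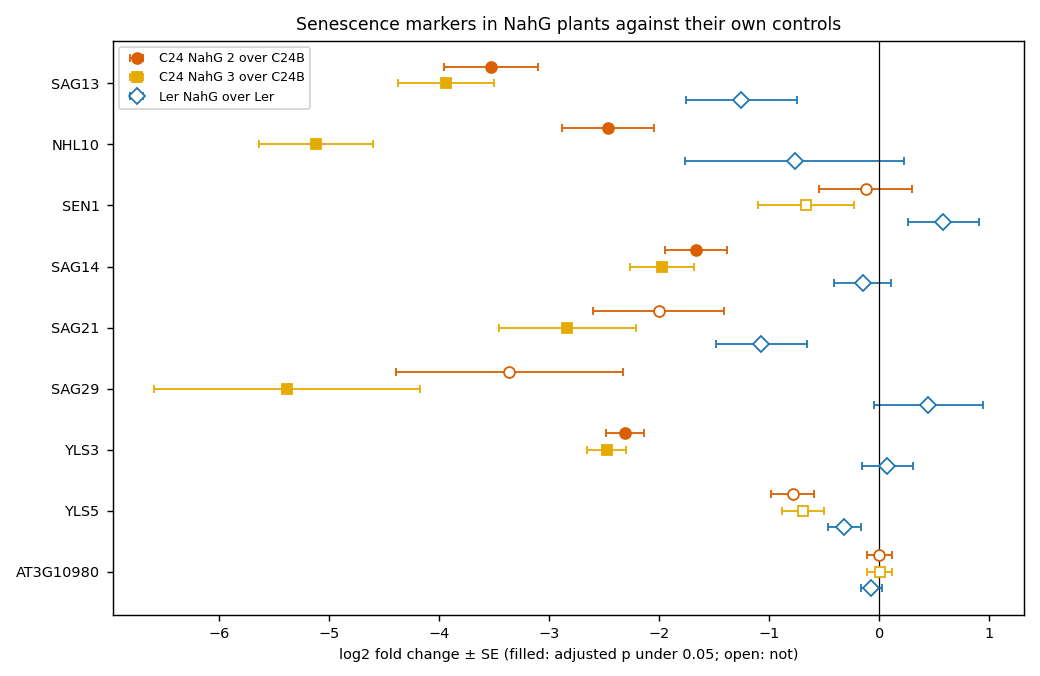
Log2 fold change ± SE (horizontal axis) of 9 markers in C24 NahG lines 2 and 3 over C24B and in Ler NahG over Ler, with filled symbols for an adjusted p under 0.05. SAG12 is left out because both lines and Ler held 0 reads of it. SAG13, NHL10, SAG14 and YLS3 are filled for both C24 lines, and no marker is filled for Ler NahG.

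Markers of shoot apex and flower summed to 24.5 to 30.9 CPM in line 2 and to 24.6 to 41.4 CPM in line 3, against 0.856 and 22.7 CPM in C24B, and 0 of the 3 tested was called in either line. STM made up nearly all of the gap between the C24B libraries, at 0.467 and 21.9 CPM. Without C24B replicate 1, the library with the low value, 8 of the 10 markers were lower in line 2, where 1452 genes were, and 8 in line 3, where 1536 were. Without C24B replicate 2 the counts were 8 markers among 2204 genes and 7 among 2818. The marker counts on leaving out a C24B library include SAG12, which entered the test through its C24B reads alone, and each of these fits left 1 C24B library. The part of these tissue markers in the results was not tested.

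Of the 10 markers, 6 had a partly matching relative, and whether reads were shared between them was not tested. SAG13 shared 94.3% of bases with AT2G29150 over 209 of its 1364 transcript bases, 93.8% with AT2G29370 over 208 and 91.8% with AT2G29170 over 208, and YLS3 shared 90.2% with AT2G44300 over 357 of 1149. These relatives were looked at after the markers' values were known. AT2G44300 was at 16.8 ± 1.80 CPM in line 2 and 18.8 ± 0.219 CPM in line 3, against 14.2 ± 3.83 CPM in C24B (SD, n = 2 each), and differed by 0.24 (SE 0.195) and 0.40 (SE 0.194), with adjusted p of 0.5 and 0.22. AT2G29370 rose in both lines, by 1.14 (SE 0.252) in line 2 and 1.33 (SE 0.253) in line 3 with adjusted p of 0.034 and 0.016, opposite in direction to SAG13, and these calls held in 6 of the 11 alternatives for line 2 and 9 of the 11 for line 3. The line 2 libraries held 6 reads of AT2G29150 and those of line 3 held 0, while the C24B libraries held 13. AT2G29170 was at 1.33 ± 0.466 CPM in line 2 and 1.27 ± 0.0509 CPM in line 3, against 1.68 ± 0.535 CPM in C24B (SD, n = 2 each), and was not called in either line (adjusted p = 0.68 and 0.55). No close relative was found for SEN1, NHL10, SAG14 or SAG29.

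In Ler, plants with NahG were set against wild-type Ler, and the sources used here do not say whether their construct is that of the C24 lines. None of the 9 markers tested passed in Ler NahG with edgeR's test, where 0.59% of all genes were called, and DESeq2 called 0 as well. At an unadjusted p under 0.05 there were 2, SAG13 and SAG21, as 1647 of 20325 genes had. SAG12 was not tested, with 5 reads (0.206 CPM) in Ler NahG replicate 1 and 0 in the other Ler NahG libraries and in Ler.

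SAG13 was at 2.80, 1.65 and 2.66 CPM in Ler NahG, against 11.8, 2.65 and 2.82 CPM in Ler. The groups overlapped, and Ler replicate 1 stood well above the other Ler libraries. SAG13 differed by -1.25 (SE 0.505, adjusted p = 0.55). Ler replicate 1 was also the highest Ler library for NHL10, SEN1, SAG14, SAG21, YLS3, YLS5, AT3G10985 and PR1, but not for SAG29 or AT3G10980. Ler replicate 1 also stood apart in some tissue markers, with STM at 9.70 CPM against 40.2 and 48.5 CPM in the other Ler libraries. Its summed mature-leaf markers were at 43800 CPM against 29140 and 27820 CPM. Its shoot apex and flower markers, STM included, summed to 46.8 CPM against 70.4 and 72.0 CPM. Apart from STM, their sum was highest in replicate 1. In Ler NahG, replicate 2 had the lowest STM, at 8.61 CPM beside 26.4 and 44.1 CPM, and the highest mature-leaf sum, at 43770 CPM beside 35370 and 32690 CPM. Its shoot apex and flower markers, STM included, summed to 43.3 CPM beside 53.1 and 66.7 CPM. Apart from STM, their sum was highest in replicate 2. The part of tissue markers in these results was not tested. NHL10 was at 0.124, 0 and 0.422 CPM in Ler NahG, against 0.8496, 0.0790 and 0.0794 CPM in Ler. These levels rest on 3, 0 and 10 reads in Ler NahG and on 19, 2 and 2 reads in Ler. NHL10 differed by -0.77 (SE 0.995, adjusted p = 0.91).

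SAG21 was at 9.43, 5.45 and 5.07 CPM in Ler NahG, against 24.7, 9.20 and 8.38 CPM in Ler, and differed by -1.07 (SE 0.416, adjusted p = 0.52). SAG14 was at 13.1, 14.9 and 15.2 CPM in Ler NahG, against 23.8, 12.01 and 12.2 CPM in Ler, and differed by -0.15 (SE 0.259, adjusted p = 0.94). YLS3 was at 7.29, 8.98 and 5.53 CPM in Ler NahG, against 9.75, 5.53 and 5.52 CPM in Ler, and differed by 0.07 (SE 0.232, adjusted p = 0.97). The libraries of these 3 genes overlapped between the groups. YLS5 was at 11.4, 10.9 and 11.9 CPM in Ler NahG, against 17.5, 11.9 and 13.2 CPM in Ler, without overlap by a narrow gap, and differed by -0.32 (SE 0.150, adjusted p = 0.62).

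SEN1 was at 29.4, 22.04 and 37.4 CPM in Ler NahG, against 24.6, 11.97 and 22.9 CPM in Ler, and differed by 0.58 (SE 0.323, adjusted p = 0.70). SAG29 was at 3.26, 7.33 and 1.39 CPM in Ler NahG, against 2.95, 2.37 and 3.45 CPM in Ler, and differed by 0.44 (SE 0.497, adjusted p = 0.89). AT3G10980 was at 28.4, 24.8 and 22.4 CPM in Ler NahG, against 24.9, 28.3 and 26.4 CPM in Ler, and differed by -0.07 (SE 0.0972, adjusted p = 0.91). SEN1, SAG29 and AT3G10980 overlapped between the groups as well.

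Whether NahG acted differently in C24 and in Ler was tested as the difference of the effects, the mean of both C24 lines minus Ler NahG, each against its own control. The difference was negative and passed for 4 of the 10 markers, where 6.78% of all genes were called lower. It was -2.46 for YLS3 (SE 0.309, adjusted p = 0.00023), -1.66 for SAG14 (SE 0.395, adjusted p = 0.017), -4.80 for SAG29 (SE 1.12, adjusted p = 0.015) and -2.47 for SAG13 (SE 0.699, adjusted p = 0.04). The YLS3 difference held in all 23 alternatives, and the SAG13 difference held in 8 of the 23. With only the compared groups fitted, SAG14 (adjusted p = 0.052) and SAG29 (adjusted p = 0.068) no longer passed, nor did SAG14 without C24B replicate 2 (adjusted p = 0.069). NHL10 missed at -3.01 (SE 1.21, adjusted p = 0.13), and without Ler replicate 1 it passed (adjusted p = 0.013). SAG12 missed with an adjusted p of 0.056. SAG21 differed by -1.34 (SE 0.716, adjusted p = 0.25), SEN1 by -0.97 (SE 0.536, adjusted p = 0.26), YLS5 by -0.41 (SE 0.234, adjusted p = 0.28) and AT3G10980 by 0.08 (SE 0.135, adjusted p = 0.74). Accession, stage and transgenic line cannot be told apart in this difference.

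The accessions themselves differed in most markers. In C24 against Ler, 6 of the 9 markers tested were higher, where 22.6% of all genes were called higher, and 2 were lower, where 19.8% were. SAG13, NHL10, SAG14, SAG21, YLS3 and YLS5 were higher in C24, and SEN1 and SAG29 were lower. NHL10 passed the filter in the first stage only through its C24 reads, and without it 5 of the other 8 were higher. Of 4 tested markers of shoot apex and flower, 3 were also lower in C24, with AP1 at 0.300 ± 0.452 CPM against 18.5 ± 4.09 CPM in Ler and AG at 0.713 ± 0.175 CPM against 10.4 ± 2.08 CPM (SD, n = 3 each). STM, at 24.3 CPM in C24 and 32.8 CPM in Ler on average, was not called (adjusted p = 0.57), and of 5 mature-leaf markers 1 was lower. The part of these in the marker differences was not tested. The Ler values are those given beside Ler NahG.

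SAG13 was at 95.01, 81.2 and 64.3 CPM in C24, against 11.8 CPM or less in Ler, which made C24 higher by 3.81 in log2 units (SE 0.466, adjusted p = 4.4e-05). NHL10 was at 25.4, 21.9 and 14.2 CPM in C24, against 0.8496 CPM or less in Ler, and was higher by 5.97 (SE 0.662, adjusted p = 2e-05). SAG21 was at 181, 256 and 164 CPM in C24, against 24.7 CPM or less in Ler, and was higher by 3.83 (SE 0.422, adjusted p = 1.9e-05). In each of the 3 genes the lowest C24 library stood far above the highest Ler library.

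SAG14 was at 151, 148 and 106 CPM in C24, against 23.8 CPM or less in Ler, and was higher by 3.08 (SE 0.267, adjusted p = 2.8e-06). YLS3 was at 71.4, 79.2 and 65.8 CPM in C24, against 9.75 CPM or less in Ler, and was higher by 3.38 (SE 0.233, adjusted p = 4.6e-07). YLS5 was at 97.1, 102 and 88.2 CPM in C24, against 17.5 CPM or less in Ler, and was higher by 2.75 (SE 0.151, adjusted p = 7.6e-08). YLS3 and YLS5 had the smallest SE of the 6, and all 6 calls held in every one of the 17 alternatives. NHL10 entered the test through C24 alone, so its call is given as a description.

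SEN1 and SAG29 went the other way. SEN1 was at 11.7, 10.7 and 7.01 CPM in C24, against 24.6, 11.97 and 22.9 CPM in Ler, a difference of -1.02 in log2 units (SE 0.334, adjusted p = 0.028). That call ended without C24 replicate 2 or 3 and without Ler replicate 1 or 3 (adjusted p = 0.057 to 0.11). SAG29 had 3 reads over the C24 libraries, at 0, 0.0392 and 0.0719 CPM, against 213 reads in Ler, at 2.95, 2.37 and 3.45 CPM. The level of SAG29 in Ler was 74.8 times that in C24, with a 95% counting interval of 25.3 to 366 (adjusted p = 1e-04). AT3G10980 was at 28.0, 25.2 and 26.8 CPM in C24, inside the Ler range, and differed by 0.01 (SE 0.0969, adjusted p = 0.96).

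Wild-type C24 was sequenced in both stages, and the sets are given side by side without a test because they belong to different stages. SAG29 was at 17.98 and 37.5 CPM in C24B and at 0 to 0.0719 CPM in C24. SAG12 was at 0.856 and 4.40 CPM in C24B and at 0 in C24. SAG21 was at 34.1 and 52.4 CPM in C24B and at 164 to 256 CPM in C24, and SEN1 was at 1.60 and 2.58 CPM in C24B and at 7.01 to 11.7 CPM in C24. SAG13 was at 50.5 and 108 CPM in C24B, a range that covers its 64.3 to 95.01 CPM in C24.

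The F1 hybrid C24 x Ler was set against each parent and against the mid-parent, the mean of the parents on the log scale. These comparisons share libraries with each other and with C24 against Ler. Against C24, 6 of the 9 markers tested were lower, where 19.3% of all genes were called lower, and none was higher, where 17.2% were. Without NHL10 the count was 5 of the other 8. Against Ler, 2 were higher, where 15.8% of genes were, and 2 were lower, where 14.4% were. Against the mid-parent, 5 were lower, where 11.5% of genes were, and 1 was higher, where 15.5% were, and without NHL10 the lower count was 4. SAG12 was at 0 in all 9 libraries of the hybrid and its parents, where 3 reads are 0.108 to 0.153 CPM.

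SAG13 was at 1.84, 1.85 and 1.41 CPM in C24 x Ler, against 64.3 to 95.01 CPM in C24 and 2.65 to 11.8 CPM in Ler. The hybrid lay below every library of both parents. SAG13 was lower than C24, at -5.56 in log2 units (SE 0.534, adjusted p = 2e-05), than Ler, at -1.74 (SE 0.538, adjusted p = 0.03) and than the mid-parent, at -3.65 (SE 0.494, adjusted p = 0.00054). The call against Ler ended without Ler replicate 1 (-0.68, SE 0.259, adjusted p = 0.059), without any 1 of the hybrid libraries (adjusted p = 0.07 to 0.087), and with the hybrid and Ler fitted alone (adjusted p = 0.073).

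NHL10 had 1 read in the 3 C24 x Ler libraries together, at 0, 0.0488 and 0 CPM, against 1550 reads in C24 and 23 in Ler. Its level in C24 was 1240 times that in the hybrid, with a 95% counting interval of 222 to 49000 (adjusted p = 2.6e-05). Its level in Ler was 19.4 times that in the hybrid, with an interval of 3.15 to 798 (adjusted p = 0.095, and 0.039 with DESeq2). Of the 23 Ler reads 19 came from Ler replicate 1, and without that library the ratio was 4.86, with an interval of 0.481 to 239.0 and an adjusted p of 0.42. Against the mid-parent NHL10 was called lower (adjusted p = 0.0022), on that 1 read. NHL10 entered these tests through C24 alone, so its calls against C24 and the mid-parent are given as a description.

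SAG14 was at 8.88, 13.6 and 9.31 CPM in C24 x Ler, against 106 to 151 CPM in C24 and 12.01 to 23.8 CPM in Ler. SAG14 was lower than C24, at -3.67 (SE 0.277, adjusted p = 4e-06), and than the mid-parent, at -2.13 (SE 0.246, adjusted p = 0.00018), and differed by -0.59 against Ler (SE 0.264, adjusted p = 0.11). SAG21 was at 26.6, 25.2 and 15.4 CPM in C24 x Ler, against 164 to 256 CPM in C24 and 8.38 to 24.7 CPM in Ler. SAG21 was lower than C24, at -3.16 (SE 0.408, adjusted p = 0.00016), and than the mid-parent, at -1.24 (SE 0.352, adjusted p = 0.023), and differed by 0.67 against Ler (SE 0.395, adjusted p = 0.22). Both genes overlapped Ler and lay far below C24. The mid-parent call of SAG21 ended without any 1 of the hybrid libraries (adjusted p = 0.057 to 0.09), and without Ler replicate 1 SAG21 was called higher than Ler (adjusted p = 0.0058).

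YLS3 and YLS5 lay between the parents. YLS3 was at 25.1, 18.7 and 21.6 CPM in C24 x Ler, against 65.8 to 79.2 CPM in C24 and 5.52 to 9.75 CPM in Ler. YLS3 was lower than C24, at -1.72 (SE 0.215, adjusted p = 0.00012), and higher than Ler, at 1.66 (SE 0.227, adjusted p = 0.0003), and differed by -0.03 from the mid-parent (SE 0.189, adjusted p = 0.92). YLS5 was at 27.8, 21.1 and 20.9 CPM in C24 x Ler, against 88.2 to 102 CPM in C24 and 11.9 to 17.5 CPM in Ler. YLS5 was lower than C24, at -2.04 (SE 0.147, adjusted p = 3e-06), higher than Ler, at 0.71 (SE 0.147, adjusted p = 0.0042), and lower than the mid-parent, at -0.66 (SE 0.128, adjusted p = 0.0041). Neither gene overlapped with a parent.

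SAG29 was at 0.102, 0.293 and 0.423 CPM in C24 x Ler, between 0 to 0.0719 CPM in C24 and 2.37 to 3.45 CPM in Ler. It was lower than Ler, at -3.38 (SE 0.639, adjusted p = 0.0024). Set against C24, 17 reads stood beside 3, 7.09 times as high in the hybrid, with a counting interval at 95% of 2.05 to 37.8 and an adjusted p of 0.073. SEN1 was at 16.6, 15.4 and 7.80 CPM in C24 x Ler, overlapping both parents, and differed by 0.44 from C24 (SE 0.338, adjusted p = 0.34), by -0.58 from Ler (SE 0.331, adjusted p = 0.21) and by -0.07 from the mid-parent (SE 0.29, adjusted p = 0.89).

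AT3G10980 was at 29.6, 32.9 and 32.4 CPM in C24 x Ler, above every library of both parents. It was higher than the mid-parent by 0.25 (SE 0.0834, adjusted p = 0.044), a call that ended when most single libraries were left out (adjusted p up to 0.16), and missed against C24 (adjusted p = 0.066) and against Ler (adjusted p = 0.069). AT3G10985 was at 48.8, 44.3 and 29.7 CPM in C24 x Ler, against 60.2, 64.5 and 49.6 CPM in C24 and 71.7, 59.6 and 66.4 CPM in Ler. AT3G10985 was lower than Ler, at -0.69 (SE 0.195, adjusted p = 0.02), and than the mid-parent, at -0.60 (SE 0.173, adjusted p = 0.025), with adjusted p up to 0.061 and 0.095 in the alternatives, opposite in direction to its neighbour.

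**Figure D3:**
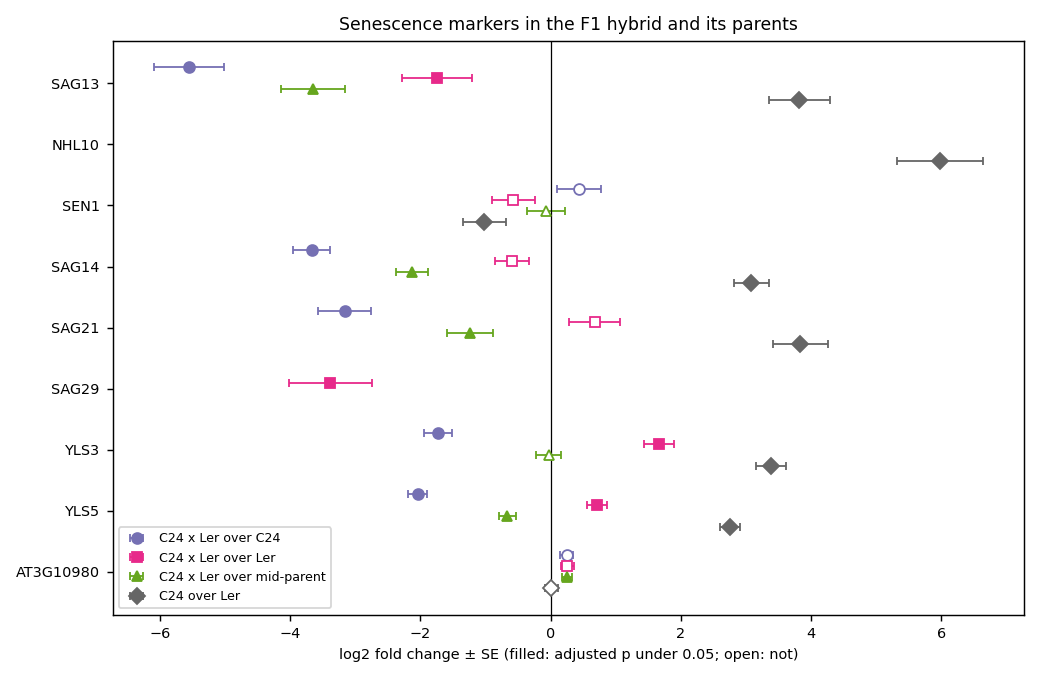
Log2 fold change ± SE (horizontal axis) of 9 markers in C24 x Ler over C24, over Ler and over the mid-parent, and in C24 over Ler, with filled symbols for an adjusted p under 0.05. Contrasts in which a group had 3 reads or fewer, and SAG12, are left out. SAG13 lies left of 0 against both parents, and YLS3 and YLS5 lie left of 0 against C24 and right of 0 against Ler.

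In C24 x Ler all 5 mature-leaf markers were called higher than the mid-parent, where 15.5% of all genes were. Against C24 4 were higher, where 17.2% of genes were, and against Ler 1 was, where 15.8% were. Their summed level was 46220 to 50170 CPM in the hybrid, against 27470 to 31230 CPM in C24 and 27820 to 43800 CPM in Ler. Summed shoot apex and flower markers were at 1.58 to 2.59 CPM in the hybrid, against 24.6 to 25.9 CPM in C24 and 46.8 to 72.0 CPM in Ler, with STM at 0.102 to 0.705 CPM in the hybrid. AG went the other way against C24, at 1.38 to 2.14 CPM in the hybrid and 0.555 to 0.901 CPM in C24. Of the 4 tested, 1 was higher and 1 lower than in C24, where 17.2% and 19.3% of all genes were. All 4 were lower than in Ler, where 14.4% of genes were. The part of leaf, apex and flower markers in the hybrid's senescence marker levels was not tested.

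Other genes of senescence were read as 3 lists. Of 19 other genes named for senescence or darkness, 7 were lower in C24 NahG line 2, 8 in line 3 and 0 in Ler NahG, with medians of -0.50, -0.44 and -0.05, and 2 had an unadjusted p under 0.05 in Ler NahG. Over all genes, the shares called lower were 7.1% in line 2 and 8.16% in line 3, and 0.59% were called in Ler NahG. There, 1647 of 20325 genes had an unadjusted p under 0.05. In C24 against Ler 6 were higher and 3 lower (over all genes 22.6% and 19.8%), and in C24 x Ler 1 was higher and 5 lower against C24, 3 higher and 4 lower against Ler, and 0 higher and 5 lower against the mid-parent. The shares of all genes called higher and lower were 17.2% and 19.3% against C24, 15.8% and 14.4% against Ler, and 15.5% and 11.5% against the mid-parent, and all these shares apply to the next lists too. YLS2 was lower in line 2 at -1.80 (SE 0.159, adjusted p = 0.00051), and in line 3 at -1.66 (SE 0.158, adjusted p = 0.00067). YLS2 lay between the parents in the hybrid, at -1.22 against C24 (SE 0.095, adjusted p = 4.9e-06) and 0.73 against Ler (SE 0.0963, adjusted p = 0.00023). ERD1, a regulatory subunit of the chloroplast Clp protease also called SAG15, was lower in line 2 at -1.07 (SE 0.138, adjusted p = 0.0031) and in line 3 at -1.37 (SE 0.139, adjusted p = 0.00092). ASN1, the dark-induced asparagine synthetase gene, was lower in line 2 at -1.52 (SE 0.258, adjusted p = 0.012, and up to 0.1 on leaving out a library) and in line 3 at -2.33 (SE 0.269, adjusted p = 0.0017). SAG101, which encodes a partner of the immune regulator EDS1, was higher in C24 than in Ler by 1.09 (SE 0.134, adjusted p = 4.7e-05).

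Of 12 regulators of senescence, 9 were lower in line 2 and 9 in line 3, with median log2 fold changes of -2.48 and -2.84. In Ler NahG 1 was lower and 4 had an unadjusted p under 0.05, with a median of -0.16. The 1 called was WRKY70, which encodes a transcription factor that acts in salicylic acid signalling and delays senescence. WRKY70 was lower in Ler NahG than in Ler, at -5.42 (SE 0.54, adjusted p = 0.00049), and lower than C24B in line 2, at -4.53 (SE 0.308), and line 3, at -4.82 (SE 0.314), with adjusted p of 0.00017 and 0.00012. Between the accessions, the NahG effect on WRKY70 differed by 0.76 (SE 0.658, adjusted p = 0.49). In C24 against Ler 10 of the 12 regulators were higher and 1 lower, and in C24 x Ler against C24 1 was higher and 9 were lower. Against Ler 3 were higher and 2 lower in the hybrid, and against the mid-parent 1 was higher and 7 were lower. NAC042 (JUB1), which encodes a factor that prolongs leaf life, was higher in C24 than in Ler by 3.77 (SE 0.371, adjusted p = 7.8e-06) and lower in the hybrid than in C24, at -3.21 (SE 0.359, adjusted p = 5.8e-05). NAC016, a promoter of senescence, was also higher in C24 than in Ler, by 4.04 (SE 0.191, adjusted p = 2.3e-08), and lay between the parents in the hybrid. NAC3 (AT3G29035, also called ORS1), another promoter of senescence, was the 1 regulator lower in C24 than in Ler, at -2.58 (SE 0.256, adjusted p = 8.4e-06). NAC042 and NAC016, whose known roles are opposite, thus stood on the same side.

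Of 8 genes for the breakdown of chlorophyll and nucleic acids and the recycling of nitrogen, 3 were lower in line 2, 4 in line 3 and 0 in Ler NahG, with medians of -0.67, -0.60 and 0.13, and 2 had an unadjusted p under 0.05 in Ler NahG. In C24 against Ler 3 were higher and 2 lower, and in the hybrid 3 were higher and 2 lower than in C24, 3 higher and 1 lower than in Ler, and 1 higher and 1 lower than the mid-parent. GSR 1 (AT5G37600), the cytosolic glutamine synthetase GLN1;1, was lower in line 2 at -1.67 (SE 0.113, adjusted p = 0.00017) and in line 3 at -1.68 (SE 0.113, adjusted p = 0.00014). GSR 1 was higher in C24 than in Ler by 1.58 (SE 0.0845, adjusted p = 6.4e-08) and lower in the hybrid than in C24, at -1.46 (SE 0.0843, adjusted p = 5.1e-07). RNS2, a vacuolar ribonuclease gene, was lower in line 2 at -0.78 (SE 0.121, adjusted p = 0.0076) and in line 3 at -0.68 (SE 0.121, adjusted p = 0.012), with adjusted p up to 0.082 and 0.11 on leaving out a library. BFN1, a nuclease gene of senescing tissue, was lower in C24 than in Ler, at -1.79 (SE 0.372, adjusted p = 0.0022), and lower in the hybrid than in Ler, at -1.40 (SE 0.368, adjusted p = 0.014, and up to 0.064 on leaving out a library).

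**Figure D4:**
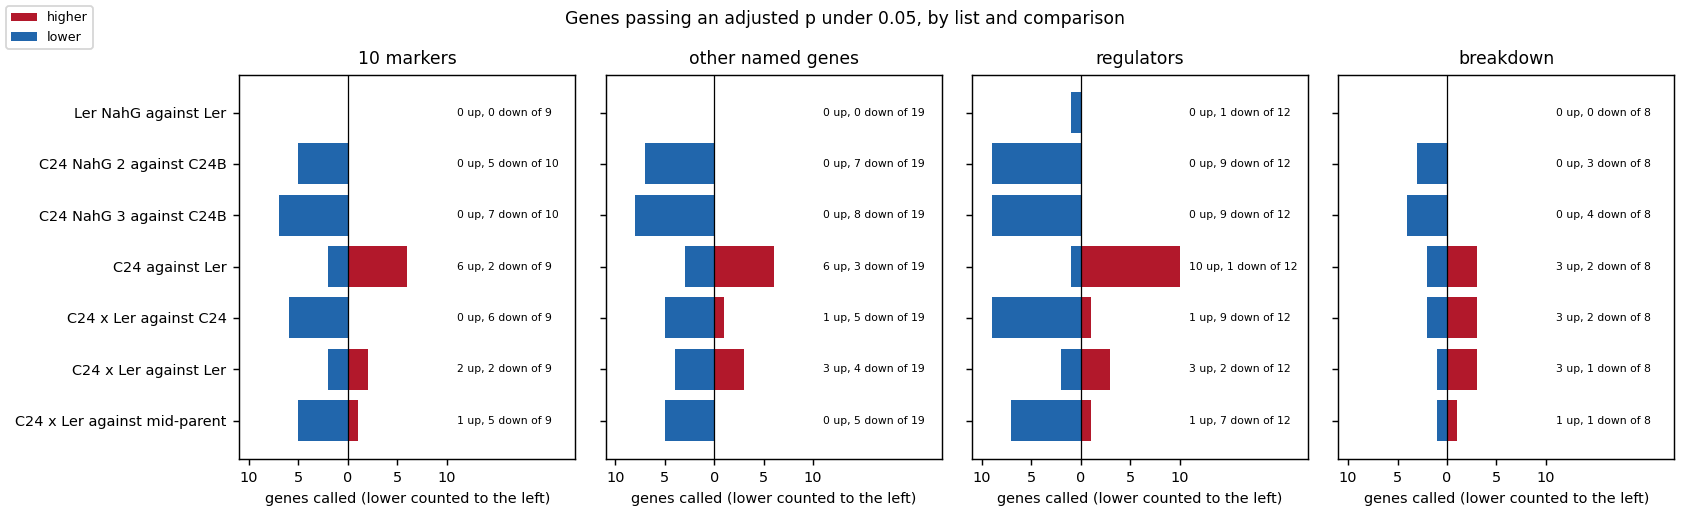
Number of genes with an adjusted p under 0.05 (horizontal axis, lower counted to the left of 0 and higher to the right) for the 10 markers and the 3 lists of other senescence genes, by comparison down the page. For the C24 lines all bars run to the left, and for Ler NahG the only bar is WRKY70.

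For the markers called in a C24 line, SAG12 apart because it was not tested in the first stage, the genes nearest in pattern were found among 19547 genes as those with the smallest root mean square difference of log2 CPM over the 18 libraries, centred within each stage. Nearest to YLS3 were AT4G39830 at 0.193 and AT5G54710 at 0.233 log2 units. Nearest to SAG14 were AT1G68620 at 0.307 and AT1G67520 at 0.334. Nearest to SAG13 were AT1G51890 at 0.400 and the transporter gene ABCG40 at 0.435. Nearest to SAG21 were AT5G25930 at 0.447 and AT1G78410 at 0.460. For NHL10 and SAG29 the nearest genes were farther off, UGT73D1 at 0.749 and AT4G10860 at 0.840 for NHL10, and BSMT1 at 1.14 and GLYI7 at 1.22 for SAG29. These libraries share groups and depth, and the distances are a description.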

How the data were processed

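The deposited files hold the authors' raw read counts per gene in 18 libraries. Per the submitters' processing notes, STAR 2.5.3, the TAIR10 build and DESeq2 were used. Their settings, the annotation and the use of strand are not given in the sources used here. No marker overlaps a gene on the other strand in RefSeq. Entries outside genes were left out: 2.76 to 10.3% unmapped, 1.37 to 2.42% multimapping, 0.256 to 0.523% in no gene and 3.47 to 4.85% ambiguous reads.

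Genes were filtered with filterByExpr (20325 in the first stage, 20112 in the later, 21061 over both), scaled by TMM and tested with edgeR's quasi-likelihood test in a fit per stage, or over all 18 libraries for the difference of NahG effects. P-values were adjusted by Benjamini-Hochberg over all genes, with a threshold of 0.05. The SE is the absolute log2 fold change over the root of F. Counting intervals are exact and, like the floor of 3 reads, cover counting error only. Alternatives were RLE scaling, no filter, DESeq2, only the compared groups, a replicate block and leaving out each library. The code was tested on simulated counts.

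The members and lists were chosen with earlier results of these data known. Named are the 10 members, PR1, and from each list up to 3 genes of lowest adjusted p in a C24 line or called elsewhere; not every gene the rule allows is printed. AT2G44300, AT2G29370, AT2G29150 and AT2G29170 were added after the markers' values were seen. Names, positions and sequences are from RefSeq (TAIR10.1), and relatives were found with blastn 2.17.0. Software was R 4.3.3, edgeR 4.0.16, limma 3.58.1, DESeq2 1.42.0, Python 3.11.15, pandas 2.3.3, scipy 1.17.1, numpy 2.4.6 and matplotlib 3.10.9.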

Additional observations from a re-analysis of the deposited data

Results flagged for a closer look

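For 4 markers the NahG effect differed between C24 and Ler by the test of the difference itself in edgeR's quasi-likelihood fit. The difference, C24 lines minus Ler, was -2.4693 on the log2 scale for SAG13, -2.4604 for YLS3, -4.8029 for SAG29 and -1.6592 for SAG14. Accession, stage and transgenic line cannot be told apart in it. With only the compared groups fitted, SAG13 (adjusted p = 0.12), SAG14 (adjusted p = 0.052) and SAG29 (adjusted p = 0.068) no longer passed. With all groups of its stage fitted, SAG29 had not passed in line 2 alone, where it did pass with no filter on low counts (adjusted p = 0.0021).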

How the results depend on the processing

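No marker's call changed direction under any alternative. Under RLE scaling all 85 marker results kept their side of the threshold. Without a filter 8 markers were called in C24 NahG line 2 (5 with it) and 1 in line 3 against line 2 (0 with it), and DESeq2 also called 1 there. With only the compared groups fitted, 1 marker passed in the difference of NahG effects (4 with all groups). Leaving out single libraries gave 2 to 8 markers in line 2, 3 to 8 in line 3 (7 with all libraries) and 2 to 6 in the difference. Marker counts here include SAG12 where it passed, although it entered the later-stage test through its C24B reads alone. The cause of these changes in count was not tested, beyond the smaller number of libraries where some were left out.

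Over all genes, Ler NahG against Ler had 120 calls, 278 with DESeq2, 21 with only the compared groups and 45 to 151 on leaving out single libraries. Line 2 had 1651, 2504 without a filter and 645 to 4268 on leaving out single libraries, with 2064 higher and 2204 lower without C24B replicate 2. Line 3 had 2062, 3325 without a filter and 611 to 5324 on leaving out single libraries, with 2506 higher and 2818 lower without C24B replicate 2. Line 3 against line 2 had 0, 13 without a filter, 13 with DESeq2, 3 with only the compared groups and 0 to 4 on leaving out single libraries. C24 x Ler against Ler had 6149, 3949 with only the compared groups and 3996 to 7608 on leaving out single libraries. Against the mid-parent there were 5500 and 2810 to 6771 on leaving out single libraries. The difference of NahG effects had 1854, 2864 with DESeq2, 930 with only the compared groups and 812 to 3533 on leaving out single libraries.

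Replicate numbers were not taken as pairs: same-numbered libraries of Ler NahG and Ler deviated with r of -0.003, -0.185 and 0.473, and the later stage has 2 numbers only. With a replicate block 6 markers were called in line 2, 8 in line 3 and 5 in the difference, SAG12 among them each time. Over all genes, 2294 and 3069 were called in lines 2 and 3. With 2 libraries a group in the later stage, a single library can end a call, and fewer than 3 reads in a library could not be told from 0.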
